A study of Homo sapiens with 12 samples.

Results

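Cytochrome c oxidase, complex IV of the mitochondrial respiratory chain, passes electrons to oxygen, and several of its nuclear-encoded parts are known to be exchanged, removed or repressed when oxygen falls. The genes described here are 7 genes of these switches, taken from the table by symbol and not by any measured value: COX4I1 and COX4I2, NDUFA4 and NDUFA4L2, LONP1, HIGD1A and ISCU. All 7 were among the 25369 genes of the deposited table. RNA was measured in 3 human cancer cell lines, RKO (colon carcinoma), A549 (lung adenocarcinoma) and H460 (large cell lung carcinoma), by strand-specific poly(A)+ RNA-seq. Each line was held in normoxia, the ordinary incubator atmosphere, or in hypoxia (1% O2) for 24 h, with 2 replicates in each of the 6 groups and 12 libraries in all. No line carried a genetic change made for these libraries, so oxygen was the only treatment within a line. RKO and A549 grew in DMEM and H460 in RPMI, so line and medium cannot be told apart where H460 is compared with another line.

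In textbook accounts, COX4I1 encodes the common isoform of subunit 4 and COX4I2 the isoform that hypoxia-inducible factor 1 (HIF-1) induces, while the HIF-1 target LONP1, a protease of the mitochondrial matrix, degrades the COX4I1 protein. NDUFA4 was first assigned to complex I and is now counted as a subunit of complex IV. NDUFA4L2, its paralogue, is a HIF-1 target in many cells and a marker of pericytes, and a further paralogue is encoded by C15orf48. HIGD1A is an inner membrane protein that binds cytochrome oxidase, and ISCU is the scaffold on which iron-sulfur clusters are built. ISCU messenger RNA is a known target of miR-210, a microRNA that HIF-1 induces.

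The sequences of microRNAs and of stretches searched for letter matches to known regulators are shown first. The expression values below are set beside them, and no match was tested as a functional site. Poly(A)+ libraries did not measure the mature microRNAs. The mature microRNA sequences come from RefSeq (GRCh38.p14), with the seed (bases 2 to 8) in capitals. miR-210-3p lies at chr11:568112-568133 on the minus strand and miR-147b-3p, which the C15orf48 transcript carries, at chr15:45433098-45433118 on the plus strand. The seeds share the same base at 6 of 7 positions.
hsa-miR-210-3p: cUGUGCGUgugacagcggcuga
hsa-miR-147b-3p: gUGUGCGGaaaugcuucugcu

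A search of 1 annotated 3′ UTR per gene for the reverse complement of each seed (ACGCACA for miR-210-3p and CCGCACA for miR-147b-3p) found 1 site each in 2 of the 7 genes. The miR-210-3p site was in ISCU, at chr12:108962792-108962821 on the plus strand of GRCh37, in a 3′ UTR of 452 bases. The miR-147b-3p site was in NDUFA4, at chr7:10973189-10973218 on the minus strand of GRCh37, in a 3′ UTR of 1693 bases. Each is printed with its flanks, and capitals mark the letters that pair with the seed.
ISCU site for the miR-210-3p seed: agctatgagatACGCACAatacttgctgtt
NDUFA4 site for the miR-147b-3p seed: agaagccacatCCGCACAattttccactta
Among 19085 annotated 3′ UTRs, ACGCACA was present in 3% and CCGCACA in 2.3%. A match is a description of the letters and was not tested as a functional site.

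Promoter windows, running from 250 bases before to 50 bases after the annotated start, were found in RefSeq (GRCh38.p14) for 4 of the 7 genes: COX4I1, LONP1, HIGD1A and ISCU. They were searched on both strands for ACGTG and GCGTG, the core letters of the hypoxia response element. Of 35116 windows, 21.4% held ACGTG, 36.5% held GCGTG and 48.4% held either. The HIGD1A window held ACGTG at 1 place and GCGTG at 2, the ISCU window GCGTG at 2 places, and the COX4I1 window neither. The LONP1 window held ACGTG at 3 places, of which 2 were CACGTG palindromes (the E-box, which reads as ACGTG on either strand), and GCGTG at 2 places. A window at another annotated start of LONP1 held ACGTG at 1 place. The HIGD1A and LONP1 windows are shown because these genes were called in opposite directions in H460 hypoxia, as described below. In RKO only HIGD1A was called, and in A549 neither was. They lie at chr3:42804441-42804740 and chr19:5720097-5720396, both on the minus strand, and capitals mark the matches, some of which run together or read on the opposite strand.
HIGD1A promoter window: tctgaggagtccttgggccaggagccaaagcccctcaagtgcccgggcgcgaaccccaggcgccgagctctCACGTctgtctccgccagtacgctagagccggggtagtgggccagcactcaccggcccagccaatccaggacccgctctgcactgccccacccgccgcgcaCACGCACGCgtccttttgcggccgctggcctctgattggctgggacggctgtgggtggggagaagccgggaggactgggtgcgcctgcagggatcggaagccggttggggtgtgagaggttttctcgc
LONP1 promoter window: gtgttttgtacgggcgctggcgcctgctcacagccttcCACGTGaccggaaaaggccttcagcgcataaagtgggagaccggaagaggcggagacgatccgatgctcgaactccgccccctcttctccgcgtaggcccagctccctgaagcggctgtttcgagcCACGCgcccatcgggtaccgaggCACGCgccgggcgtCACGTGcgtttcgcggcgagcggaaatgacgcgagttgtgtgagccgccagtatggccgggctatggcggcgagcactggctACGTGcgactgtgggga

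The libraries held 27350424 (H460 normoxia, replicate 1) to 41757584 (A549 hypoxia, replicate 1) counted reads. The study describes its RNA-seq replicates as biological duplicates obtained independently, so p-values measure the spread between such duplicates, with 2 in each group. The treatment was visible in every line: the HIF targets CA9, NDRG1 and ALDOC were called higher in hypoxia in all 3 lines, with log2 fold changes from 3.17 to 6.82. Markers of the tissue of origin were mostly low. Of 7 colon epithelial markers, CDX2 was the only one over 0.5 CPM in RKO, while CDX1 and VIL1 had 0 counts there. Of 7 lung epithelial markers, 2 were over 0.5 CPM in A549 and H460 in normoxia, and surfactant genes such as SFTPB and SFTPC had at most 4 counts in any library. Markers of the other tissue were also seen in normoxia. A549 had 2 colon markers over 0.5 CPM, H460 had 0, and RKO had 1 lung marker.

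Levels below are CPM, the count scaled to library total, after TMM scaling over all 12 libraries, except where genes are compared with each other, which is done in RPKM, the count per kilobase of gene length scaled to library total. Within a line, a gene was called when edgeR's quasi-likelihood test gave an adjusted p under 0.1 and the fold change passed 1.5. COX4I2 was under the filter on low counts, so 6 of the 7 genes were tested in each line. In RKO 1 was called higher and 1 lower, against a background of 33.9% of 12817 genes called in either direction, 18.8% upward and 15.1% downward. In H460 2 were called higher and 1 lower, against 51.9% of 14080 genes, 24.6% upward and 27.3% downward. These shares are near the background, so the number of calls says nothing particular about the 7 genes. In A549 none of the 6 was called, and the count was 0 at an unadjusted p under 0.05 and 0 with DESeq2, where edgeR called 2.67% of 14251 genes, 2.22% upward and 0.456% downward. A549 replicates were the least alike, and with the replicate number as a block the A549 calls over all genes went from 381 to 1912, with still 0 of the 6 genes among them.

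**Figure D1:**
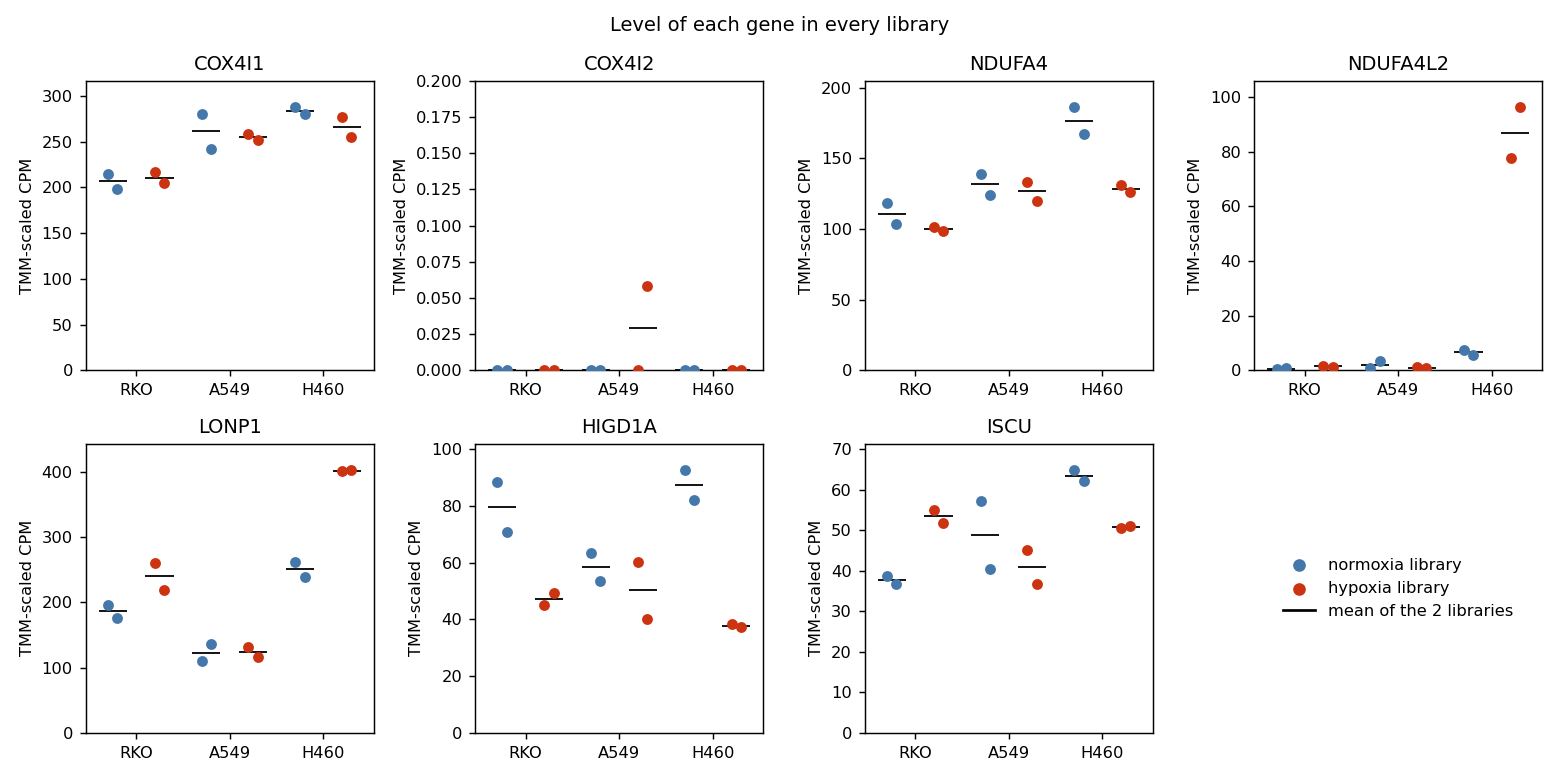
Each point is 1 library, in TMM-scaled CPM on a linear axis that starts at 0 and differs between panels, for normoxia (blue) and hypoxia (red) in RKO, A549 and H460; black lines are means of 2 libraries. NDUFA4L2 stands at 77.5 and 96.2 CPM in H460 hypoxia and under 7.5 CPM in every other library, and HIGD1A is lower in both hypoxia libraries of RKO and H460.

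No switch of subunit 4 was detectable in the RNA at the depth of these libraries. COX4I1 (GRCh37 chr16:85833173-85840607, plus strand) was the most abundant of the 7 genes per length, at 256 to 360 RPKM. In RKO it stood at 215 and 199 CPM in normoxia and 217 and 205 CPM in hypoxia. In A549 the values were 281 and 242 CPM in normoxia and 259 and 252 CPM in hypoxia. In H460 they were 288 and 280 CPM in normoxia and 277 and 255 CPM in hypoxia. The groups overlapped in RKO and A549, and in H460 both hypoxia libraries were below both normoxia libraries. RKO had a log2 fold change of -0.04 ± 0.15 (SE, 95% interval -0.36 to 0.29), A549 of -0.05 ± 0.17 (-0.44 to 0.34) and H460 of -0.11 ± 0.09 (-0.30 to 0.08), and none passed the edgeR test (adjusted p 0.876, 0.916 and 0.275). With TMM scaling, the intervals leave out a 1.5-fold change in either direction in each line. For the difference in response RKO minus H460, the joint edgeR fit gave 0.12 (adjusted p = 0.677) with TMM. Scaled by library size alone, it gave 0.51 (adjusted p = 0.0294).

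COX4I2 (chr20:30225691-30232800, plus strand), the isoform known to be induced by low oxygen, had 0 counts in 11 of the 12 libraries. The remaining library, A549 hypoxia replicate 2, had 2 counts, against 8659 for COX4I1. COX4I2 was then 0.0278% of the summed COX4I1 and COX4I2 RPKM there (exact Clopper-Pearson 95% interval 0.00337 to 0.1%). In each of the 11 libraries at 0, a floor of 3 counts allows a share of up to 0.0307 to 0.0551%, and these limits cover counting error only. COX4I2 was therefore not detectable at this depth in RKO and H460 at either oxygen level. With reads in 1 library alone, every arrangement of the oxygen labels gives a difference of the same size, so the shares of COX4I2 allow no permutation test.

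LONP1 (chr19:5691845-5720463, minus strand), the protease that degrades COX4I1 protein, was higher in H460 hypoxia. Its level there was 262 and 240 CPM in normoxia and 401 and 403 CPM in hypoxia. That was a log2 fold change of 0.66 ± 0.09 (SE, 1.58-fold, edgeR adjusted p = 3.8e-05). The H460 groups did not overlap. The call depended on the scaling: by library size alone the log2 fold change was 0.31, which kept the direction and an adjusted p of 0.00512 but stayed under 1.5-fold. It also fell under 1.5-fold without H460 normoxia replicate 2 (0.56).

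In RKO the LONP1 values were 197 and 176 CPM in normoxia and 261 and 219 CPM in hypoxia. Both hypoxia libraries were above both normoxia libraries, but the log2 fold change of 0.30 ± 0.16 (95% interval -0.05 to 0.65) did not pass the edgeR test (adjusted p = 0.153). In A549 the values were 111 and 136 CPM in normoxia and 132 and 116 CPM in hypoxia, with overlapping groups and a log2 fold change of -0.0043 ± 0.18 (-0.41 to 0.40, edgeR adjusted p = 0.994). The effects in A549 and H460 differed by -0.67 ± 0.21 on the log2 scale in the joint edgeR fit (adjusted p = 0.0281). Scaling by library size alone gave -0.41 and an adjusted p of 0.135 for this difference, and leaving out A549 normoxia replicate 2 or H460 normoxia replicate 2 gave 0.101 and 0.103. Over the 3 lines together LONP1 was 0.35 ± 0.09 higher on the log2 scale (edgeR adjusted p = 0.00328, under 1.5-fold).

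NDUFA4 (chr7:10971580-10979813, minus strand) and NDUFA4L2 (chr12:57628686-57634475, minus strand) are the subunit and its paralogue. NDUFA4 was at 118 and 104 CPM in RKO normoxia and 101 and 98.6 CPM in RKO hypoxia. In A549 it was at 139 and 124 CPM in normoxia and 133 and 120 CPM in hypoxia. In H460 it was at 186 and 167 CPM in normoxia and 131 and 126 CPM in hypoxia. The hypoxia values lay below the normoxia values without overlap in RKO and H460 and overlapped them in A549. In H460 the log2 fold change of -0.47 ± 0.09 (SE, edgeR adjusted p = 0.000477) was a 1.39-fold decrease, under the fold threshold. By library size alone it was -0.83 and called. RKO gave -0.21 ± 0.15 (adjusted p = 0.29) and A549 -0.07 ± 0.17 (adjusted p = 0.875), neither past the edgeR test.

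NDUFA4L2 rose in H460. Its counts were 207 and 193 in normoxia and 1837 and 2766 in hypoxia, or 7.34 and 5.66 CPM against 77.5 and 96.2 CPM. The log2 fold change was 3.73 ± 0.15 (13.3-fold, edgeR adjusted p = 2.73e-09). It was between 3.51 and 3.90 when any 1 of the 4 libraries was left out.

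In RKO NDUFA4L2 was called higher from a low level. The counts were 20 and 27 in normoxia and 66 and 49 in hypoxia, or 0.531 and 0.678 CPM against 1.63 and 1.31 CPM. The groups did not overlap, and the log2 fold change was 1.21 ± 0.39 (edgeR adjusted p = 0.0305). DESeq2 gave 1.22 with an adjusted p of 0.105, and leaving out RKO normoxia replicate 1 or RKO hypoxia replicate 1 gave edgeR adjusted p-values of 0.18 and 0.118.

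A549 gave no call, and its NDUFA4L2 estimate rested on 1 library. The counts were 28 and 143 in normoxia and 42 and 27 in hypoxia, or 0.667 and 3.51 CPM against 1.01 and 0.786 CPM. Normoxia replicate 2 was the highest of the 4 libraries, and the other 3 lay close together. The log2 fold change was -1.22 ± 0.65 (95% interval -2.69 to 0.25, edgeR adjusted p = 0.386). Without normoxia replicate 2 it was 0.41, of the opposite sign, and without normoxia replicate 1 it was -1.97 and called lower (adjusted p = 0.0402). Without A549 hypoxia replicate 1 it was -1.43 and also called lower (adjusted p = 0.0909).

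The 3 lines differed from each other in the NDUFA4L2 response. In the joint edgeR fit the effect in RKO minus that in H460 was -2.47 ± 0.72 on the log2 scale (adjusted p = 0.0194). A549 minus H460 was -4.95 ± 0.67 (adjusted p = 0.000229) and RKO minus A549 was 2.48 ± 0.77 (adjusted p = 0.061). The last difference did not pass without any 1 of 5 libraries. Without A549 normoxia replicate 2 it was 0.84 with an adjusted p of 0.316. Without RKO normoxia replicate 1, RKO hypoxia replicate 1, RKO normoxia replicate 2 or A549 hypoxia replicate 2 it was between 2.31 and 2.66, with adjusted p-values of 0.102 to 0.187. RKO minus H460 moved to an adjusted p of 0.103 without RKO normoxia replicate 2.

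**Figure D2:**
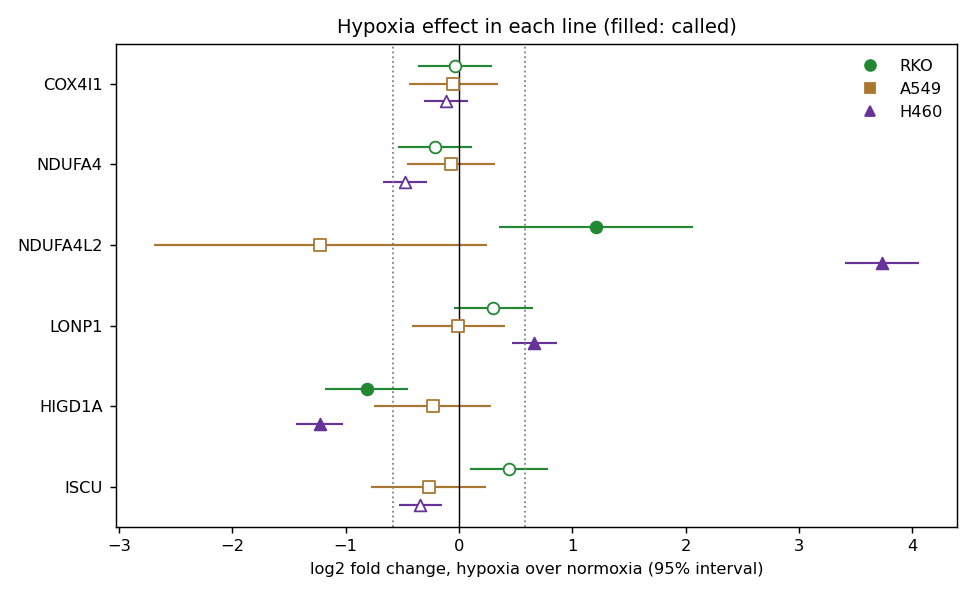
Log2 fold change of hypoxia over normoxia for the 6 tested genes in RKO (circles), A549 (squares) and H460 (triangles), with 95% intervals; filled symbols were called and dotted lines mark 1.5-fold in either direction. NDUFA4L2 spans -1.22 in A549 to 3.73 in H460, whereas all 3 COX4I1 intervals lie inside the dotted lines.

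Per length, NDUFA4L2 reached the level of NDUFA4 in H460 hypoxia. NDUFA4L2 made up 6.40% (exact 95% interval 5.59 to 7.29%) and 5.54% (4.81 to 6.34%) of the summed NDUFA4 and NDUFA4L2 RPKM in H460 normoxia. In H460 hypoxia its share was 50.7% (49.2 to 52.1%) and 56.9% (55.7 to 58.1%). In RKO the share was 0.773 and 1.12% in normoxia and 2.71 and 2.24% in hypoxia. In A549 it was 0.824 and 4.67% in normoxia and 1.29 and 1.12% in hypoxia. The groups were separate in RKO and H460 and overlapped in A549, and the intervals cover counting error only.

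Hypoxia minus normoxia, the NDUFA4L2 share changed by 1.53 percentage points in RKO, -1.54 in A549 and 47.8 in H460. Their mean of 15.9 points did not pass an exact two-sided permutation test of the oxygen labels within lines (p = 0.176), whose smallest possible p is 0.00926. Without A549 normoxia replicate 2 the mean was 16.6 points.

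C15orf48, the third member of the NDUFA4 family and the transcript that carries miR-147b, rose in A549. This gene (chr15:45722727-45725647, plus strand) stood at 19.3 and 15.7 CPM in A549 normoxia and 75.3 and 91.3 CPM in A549 hypoxia. Its log2 fold change was 2.23 ± 0.21 (edgeR adjusted p = 0.00441). In H460 it was much lower, at 0.958 and 1.41 CPM in normoxia and 1.94 and 2.68 CPM in hypoxia, and the log2 fold change was 0.94 ± 0.30 (edgeR adjusted p = 0.0127). By library size alone the H460 adjusted p was 0.107, and without H460 normoxia replicate 1 it was 0.105. RKO had at most 4 C15orf48 counts in any library and was not tested.

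Over the 3 paralogues, the composition of the family was looked at after the C15orf48 values were seen. In A549 normoxia NDUFA4 made up 76.4 and 75.6% of the summed RPKM, and C15orf48 made up 22.9 and 20.7%. In A549 hypoxia NDUFA4 made up 44.8 and 37.6%, and C15orf48 54.6 and 61.9%. H460 hypoxia held a similar NDUFA4 share, 48.6 and 42.3%, with NDUFA4L2 at 49.9 and 55.8% and C15orf48 at 1.56 and 1.94%. RKO stayed at 97.1% NDUFA4 or more in all 4 libraries. The summed RPKM of the 3 genes was 92.6 and 84.9 in A549 normoxia and 145 and 149 in A549 hypoxia, and NDUFA4 itself did not fall in A549 by the test given above.

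**Figure D3:**
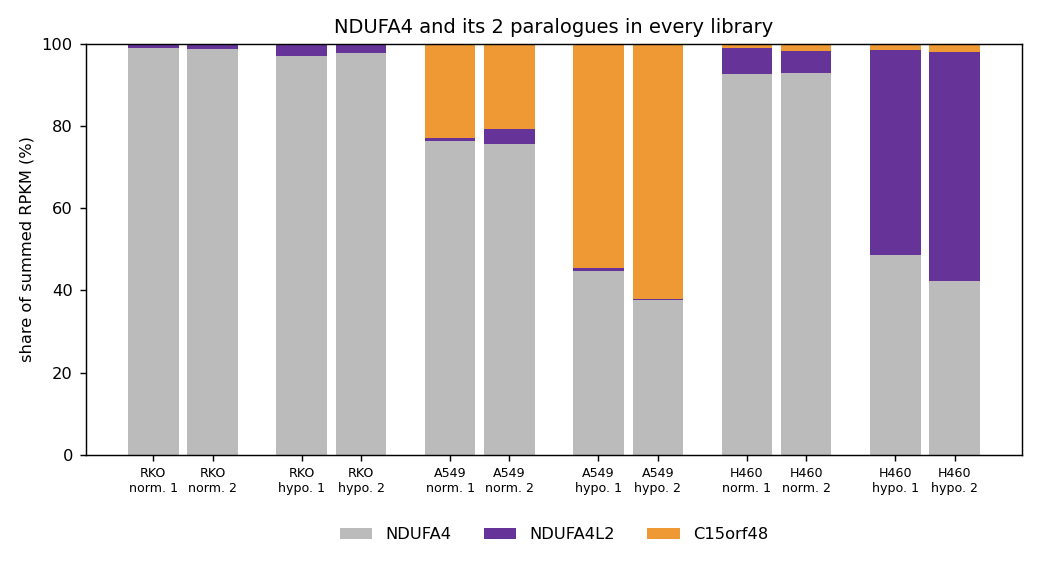
Each bar is 1 library and shows, in percent of the summed RPKM, NDUFA4 (grey), NDUFA4L2 (purple) and C15orf48 (orange). NDUFA4 falls under 50% in the 2 hypoxia libraries of A549, where C15orf48 reaches 54.6 and 61.9%, and in those of H460, where NDUFA4L2 reaches 49.9 and 55.8%.

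NDUFA4L2 marks pericytes in tissue, so markers of pericytes and smooth muscle were read in the same libraries. Their summed level over 8 genes in H460 was 500 to 681 CPM in normoxia and 1157 to 1193 CPM in hypoxia. It was 21.6 to 29.0 and 36.9 to 39.8 CPM in A549, and 5.37 to 6.23 and 9.29 to 9.49 CPM in RKO. The H460 sum was almost all NOTCH3, at 654 and 473 CPM in normoxia and 1171 and 1125 CPM in hypoxia (log2 fold change 1.01 ± 0.14, edgeR adjusted p = 3.27e-05). RBPJ, the nuclear partner of activated Notch receptors, rose as well, by 2.50 ± 0.12 in H460 (adjusted p = 6.95e-09) and 0.86 ± 0.18 in RKO (adjusted p = 0.00437, edgeR). RBPJ was not called in A549. In H460 the pericyte markers CSPG4 and KCNJ8 were called lower, and the smooth muscle gene MYH11 had at most 8 counts in any library. Of the 7 pericyte and smooth muscle markers tested in H460, 4 were not called. In RKO ACTA2 was called higher (1.46), while DES and KCNJ8 had 0 counts. Of 6 blood and endothelial markers, CD68 made up nearly all of the sum, which was 18.9 to 22.2 CPM in H460 normoxia and 41.2 to 53.9 CPM in H460 hypoxia. It was 433 to 476 and 568 to 639 CPM in RKO and 109 to 151 and 133 to 142 CPM in A549, in the same order. CD3E had 0 counts in every library. The part of these genes in the NDUFA4L2 values was not tested.

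HIGD1A (chr3:42824400-42846027, minus strand) fell in RKO and H460. It was at 88.6 and 70.9 CPM in RKO normoxia and 45.3 and 49.5 CPM in RKO hypoxia. In H460 it was at 92.7 and 82.3 CPM in normoxia and 38.2 and 37.3 CPM in hypoxia. In both lines every hypoxia library was below every normoxia library. The log2 fold change was -0.81 ± 0.17 in RKO (edgeR adjusted p = 0.00371) and -1.23 ± 0.10 in H460 (a 2.34-fold decrease, adjusted p = 3.51e-07). Every alternative scaling, tool and left-out library kept both calls.

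In A549 HIGD1A was at 63.6 and 53.6 CPM in normoxia and 60.3 and 40.3 CPM in hypoxia. The groups overlapped, and the log2 fold change was -0.23 ± 0.23 (95% interval -0.75 to 0.28, edgeR adjusted p = 0.653). The effect in A549 differed from that in H460 by 0.99 ± 0.26 on the log2 scale (adjusted p = 0.0126) in the joint edgeR fit. RKO minus H460 was 0.46 ± 0.26 (adjusted p = 0.208) and RKO minus A549 was -0.53 ± 0.26 (adjusted p = 0.222). With the replicate number as a block these became 0.46 and -0.50 with adjusted p-values of 0.084 and 0.097, both past the threshold. Scaled by library size alone they were 0.86 (adjusted p = 0.0259) and -0.41 (adjusted p = 0.377) by edgeR. Over the 3 lines HIGD1A was 0.73 ± 0.11 lower (log2 fold change -0.73, edgeR adjusted p = 6.97e-05) and NDUFA4L2 1.27 ± 0.29 higher (adjusted p = 0.00236). They were the only 2 of the 6 genes called in that average, against 26.4% of 15595 genes in either direction, 14.8% upward and 11.5% downward. The NDUFA4L2 average joins unlike log2 fold changes of 1.21 in RKO, -1.22 in A549 and 3.73 in H460.

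ISCU (chr12:108956294-108963160, plus strand), which carries the miR-210-3p site shown above, moved in opposite directions in RKO and H460. In RKO it was at 38.7 and 36.8 CPM in normoxia and 55.1 and 51.9 CPM in hypoxia. In H460 it was at 64.8 and 62.1 CPM in normoxia and 50.5 and 51.0 CPM in hypoxia. Neither line's groups overlapped. The log2 fold change was 0.44 ± 0.16 in RKO (edgeR adjusted p = 0.0441) and -0.34 ± 0.09 in H460 (adjusted p = 0.00426), both under 1.5-fold and so not called. By library size alone the H460 value was -0.69 and called lower.

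In A549 ISCU was at 57.2 and 40.4 CPM in normoxia and 45.1 and 36.7 CPM in hypoxia, with overlapping groups and a log2 fold change of -0.27 ± 0.23 (edgeR adjusted p = 0.594). The effect in RKO was higher than that in H460 by 0.83 ± 0.23 on the log2 scale (adjusted p = 0.0166) and higher than that in A549 by 0.76 ± 0.23 (adjusted p = 0.0614) in the joint edgeR fit. The RKO and H460 difference passed with each library left out in turn. That between RKO and A549 did not pass without any 1 of 5 libraries, with adjusted p-values of 0.136 to 0.16. These 5 were RKO normoxia replicates 1 and 2, RKO hypoxia replicate 1, A549 normoxia replicate 1 and A549 hypoxia replicate 2.

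MIR210HG (chr11:565657-568457, minus strand), the host transcript of miR-210, was called higher in all 3 lines. It went from 4.70 and 2.36 to 40.6 and 35.8 CPM in RKO, a log2 fold change of 3.38 ± 0.29 (edgeR adjusted p = 7.02e-05). In A549 it went from 8.05 and 3.04 to 26.0 and 56.4 CPM (2.87 ± 0.48, adjusted p = 0.0251, edgeR). In H460 it went from 9.08 and 5.92 to 124 and 124 CPM (4.04 ± 0.16, edgeR adjusted p = 2.15e-09). ISCU RNA was thus higher in RKO hypoxia and lower in H460 hypoxia while the host transcript was higher in both, and mature miR-210 was not measured.

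Over the 6 tested genes and 3 line pairs, 7 of 18 tests of a difference in response between lines passed an adjusted p of 0.1. Among all 15595 genes, the share passing was 14.6% for RKO against A549, 37.6% for RKO against H460 and 36% for A549 against H460. With the replicate number as a block 11 passed, the additions being HIGD1A in both pairs given above and NDUFA4 in RKO minus H460 (0.31, adjusted p = 0.0937) and A549 minus H460 (0.40, adjusted p = 0.0367). Scaled by library size alone, 10 passed in the edgeR fit. Among them, in RKO minus H460, were COX4I1 (0.51, adjusted p = 0.0294), NDUFA4 (0.70, adjusted p = 0.00837) and HIGD1A (0.86, adjusted p = 0.0259). LONP1 in A549 minus H460 did not pass at that scaling.

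The lines also differed before the treatment. In normoxia NDUFA4L2 followed the order H460, A549, RKO, with 6.50 ± 1.19, 2.09 ± 2.01 and 0.605 ± 0.104 CPM (mean ± SD, n = 2). H460 was above A549 by 1.64 ± 0.45 on the log2 scale (edgeR adjusted p = 0.00595; normoxia A549 minus H460, -1.64) and A549 above RKO by 1.77 ± 0.55 (adjusted p = 0.0101; RKO minus A549, -1.77). Both rested on the A549 normoxia libraries. Without A549 normoxia replicate 2 the RKO and A549 difference was -0.14 and did not pass (adjusted p = 0.767), and A549 minus H460 was -3.27. Without A549 normoxia replicate 1, A549 minus H460 was -0.88 and still called (adjusted p = 0.0106). LONP1 followed the order H460, RKO, A549. H460 was above RKO (RKO minus H460, -0.43 ± 0.15, adjusted p = 0.0178) by less than 1.5-fold, and RKO was above A549 by 0.60 ± 0.15 (adjusted p = 0.00239), both in the joint edgeR fit. That value fell under 1.5-fold with RLE scaling (0.57), without RKO normoxia replicate 1 (0.50) and without A549 normoxia replicate 1 (0.46). ISCU and NDUFA4 both followed the order H460, A549, RKO. RKO was below H460 by more than 1.5-fold in each (-0.75 ± 0.17, adjusted p = 0.00106, and -0.67 ± 0.13, adjusted p = 0.000363, edgeR).

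The remaining neighbours in these orders were closer. ISCU differed by under 1.5-fold between neighbouring lines (adjusted p 0.061 and 0.0615, edgeR). NDUFA4 in A549 and RKO did not differ beyond the spread (-0.25 ± 0.13, edgeR adjusted p = 0.107). HIGD1A in H460 and RKO did not either (-0.13 ± 0.18, adjusted p = 0.531), and both were above A549 by less than 1.5-fold. COX4I1 in H460 and A549 did not (-0.12 ± 0.13, adjusted p = 0.449), and both were above RKO by less than 1.5-fold. The backgrounds were large. Of all genes, RKO differed from A549 in 60.2% and from H460 in 61.9%, and the lung lines differed from each other in 52.1%.

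Per length, the order of the 7 genes within a library was led by COX4I1. NDUFA4 ranged from 49.9 to 93.2 RPKM, LONP1 from 32.9 to 98.2, ISCU from 30.1 to 57.0 and HIGD1A from 9.83 to 31.3. NDUFA4L2 ranged most widely, from 0.468 RPKM in RKO normoxia to 67.1 RPKM in H460 hypoxia, and COX4I2 reached 0.0818 RPKM in its single library with reads.

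The other subunits of cytochrome oxidase moved little, with 1 exception. Of 15 genes 11 were tested. COX6B2, the testis isoform of subunit 6B, was called higher in A549, and no other of these genes was called in any line. In RKO and H460 COX6B2 passed the filter on low counts only through the hypoxia libraries, so no test is given for it there. Its counts were 10 and 12 in RKO normoxia and 77 and 42 in RKO hypoxia (log2 fold change 2.34). In A549 they were 249 and 320 in normoxia and 677 and 963 in hypoxia (1.66 ± 0.30, adjusted p = 0.0361, edgeR). In H460 they were 1 and 7 in normoxia and 63 and 87 in hypoxia (4.42). The H460 value was 3.71 without normoxia replicate 1 and 6.10 without normoxia replicate 2. No line's groups overlapped. Per length COX6B2 stayed far below COX6B1, the common isoform: it reached 16.2 RPKM in A549 hypoxia, where COX6B1 was at 243 and 219 RPKM. The median log2 fold change of the 11 genes was -0.04, 0.05 and 0.04 in RKO, A549 and H460, against 0.01, -0.01 and -0.04 over all genes. With library-size scaling the medians were 0.05, -0.04 and -0.32, and 3 genes were called lower in H460. That scaling moved the median of all genes in H460 by -0.352. COX6B2 was under the filter in RKO and H460 without either hypoxia library, and in A549 limma on log2(RPKM + 1) gave an adjusted p of 0.134.

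Of 23 assembly factors of cytochrome oxidase, all tested, 11 were called lower in RKO and 12 in H460, and none was called higher in either. Over all genes 15.1% were called lower in RKO and 27.3% in H460. In A549 none was called by edgeR, against 3 at an unadjusted p under 0.05 and 1 called lower with DESeq2 and with the replicate block, and 2 without A549 hypoxia replicate 1. Their median log2 fold changes, in the order RKO, A549 and H460, were -0.55, -0.16 and -0.60. COA7 fell by 1.92 ± 0.29 in RKO (log2, edgeR adjusted p = 0.00069) and by 1.79 ± 0.12 in H460 (adjusted p = 1.51e-07). SCO1, a copper chaperone of the enzyme, had log2 fold changes of -1.05 ± 0.16 (adjusted p = 0.000833) and -1.27 ± 0.09 (adjusted p = 2.05e-07) in the same lines by edgeR. COA6, also needed to deliver copper, had -0.80 ± 0.18 (adjusted p = 0.00585) and -0.80 ± 0.08 (adjusted p = 4.13e-06). In H460 19 assembly factors were called lower with library-size scaling, which moved the median of all genes there by -0.352. That scaling called 7833 genes in H460 in either direction, against 7304 with TMM, and the downward share was not counted. The 19 are therefore not set against a background. Some calls were near the fold threshold and fell under 1.5-fold when 1 library was left out. In RKO COX16, TACO1 and COX10 came as close to zero as -0.39, -0.50 and -0.54. In H460 SCO2, COX11 and COA1 came to -0.55, -0.56 and -0.56.

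**Figure D4:**
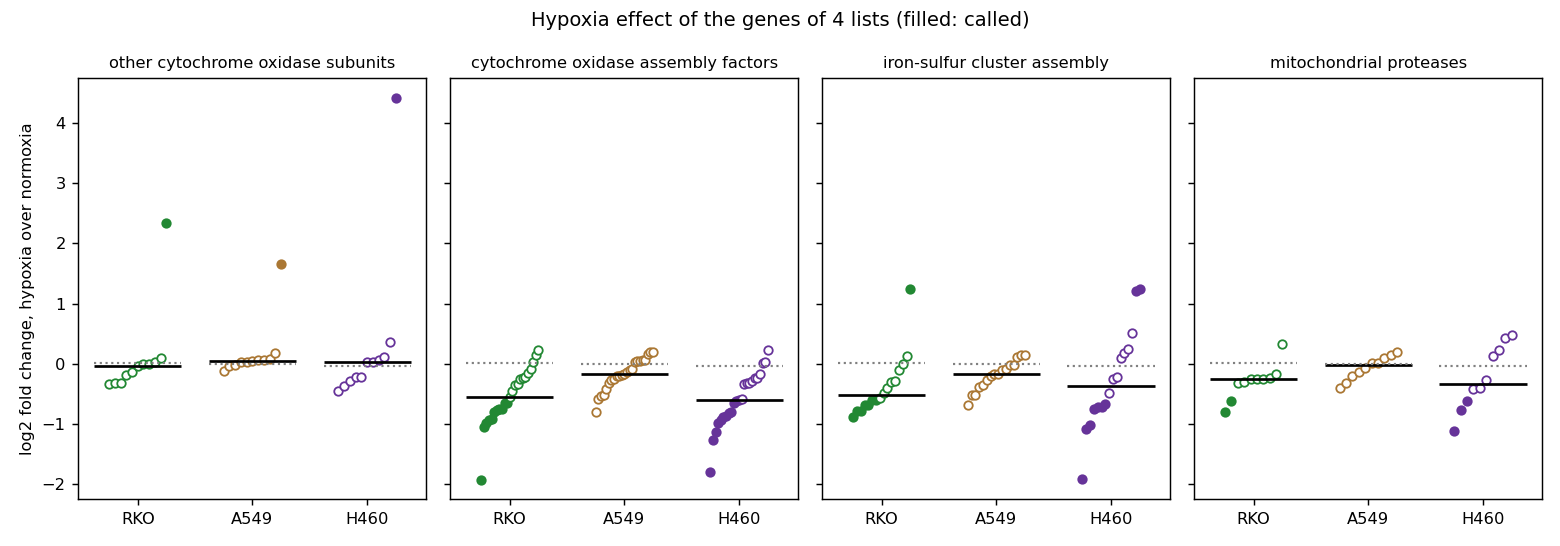
Log2 fold change of hypoxia over normoxia for every tested gene of 4 lists in RKO, A549 and H460; filled points were called, solid lines are list medians and dotted lines the medians of all tested genes. Assembly factors have list medians of -0.55 and -0.60 in RKO and H460, and the single high point among other subunits in each line is COX6B2. In RKO and H460 the fill of the COX6B2 point is not read as a call. The gene passed the filter on low counts there only through the hypoxia libraries.

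LONP1, called higher in H460, is 1 of a larger set of mitochondrial proteases. Of 10 other such genes 2 were called lower in RKO and 3 in H460, and none was called higher, counts that lie near the 15.1% and 27.3% of all genes called lower in these lines. AFG3L2, a protease subunit of the inner membrane, had log2 fold changes of -0.80 ± 0.15 in RKO (adjusted p = 0.00231) and -0.62 ± 0.08 in H460 (adjusted p = 3.78e-05) by edgeR. PARL, the rhomboid protease, had -0.61 ± 0.15 (adjusted p = 0.0093) and -0.76 ± 0.11 (adjusted p = 6.32e-05). OMA1 had -1.11 ± 0.20 in H460 (edgeR adjusted p = 0.000279). In A549 none was called by edgeR or DESeq2, against 1 at an unadjusted p under 0.05. The list medians were -0.26, -0.03 and -0.34 in RKO, A549 and H460. Library-size scaling called 6 of these genes lower in H460, where it moved the median of all genes by -0.352. In RKO PARL fell under 1.5-fold by library size alone and without normoxia replicate 1 or hypoxia replicate 1, which left AFG3L2.

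Of 16 other genes of iron-sulfur cluster assembly, 1 was called higher and 7 lower in RKO, and 2 higher and 7 lower in H460. The background was 18.8% upward and 15.1% downward in RKO, and 24.6% upward and 27.3% downward in H460. In A549 none was called by edgeR or DESeq2, against 3 at an unadjusted p under 0.05, while 1 was called lower with the replicate block and 2 without A549 hypoxia replicate 1. GLRX5, BOLA3, HSPA9 and NDUFAB1 were among those called lower in both RKO and H460, with log2 fold changes between -0.60 and -1.02. ISCA1 was called higher in H460 (1.21 ± 0.08, edgeR adjusted p = 1.62e-07) and FDX1L lower there (-1.92 ± 0.21, adjusted p = 5.03e-06). IBA57 was called higher in H460 (1.24 ± 0.12, adjusted p = 2.34e-06) and lower in RKO (-0.68 ± 0.22, adjusted p = 0.0342), the RKO call being lost without RKO hypoxia replicate 1 or normoxia replicate 2. The list medians were -0.52, -0.17 and -0.37. The 7 genes called lower in RKO became 4 without RKO normoxia replicate 1. Of the 4 other HIG1 domain genes only HIGD2A was tested, and it was not called in any line, with log2 fold changes of -0.12, 0.16 and 0.31.

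The genes whose log2 levels ran most nearly parallel to each gene over the 12 libraries were sought among 12423 genes, as a description with no test, since all points share 3 lines and 2 oxygen levels. COX4I1 ran with DHRS4L2 (Pearson r 0.956), TBCE (0.951) and NDUFB11 (0.950), a complex I subunit. NDUFA4 ran with PRNP (0.946), ARV1 (0.945) and C5orf28 (0.943), and NDUFA4L2 with LINC01278 (0.980), ARID4B (0.975) and SMAD2 (0.974). LONP1 ran with RAB18 (0.989), MARCH7 (0.986) and ELK4 (0.984). HIGD1A ran with GOT2 (0.973), the mitochondrial aspartate aminotransferase, NDC1 (0.963) and FH (0.961), the fumarase gene. ISCU had the lowest values, with MORC4 (0.907), OSGIN1 (0.866) and CDK1 (0.846).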

How the data were processed

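Strand-specific poly(A)+ RNA-seq of RKO, A549 and H460 cells gave 12 libraries in 6 groups of 2. According to the study's methods and the submitters' processing notes, the authors trimmed single-end reads, aligned them with TopHat2 2.0.13 to GRCh37/hg19, removed alignments of low mapping quality and counted exon reads by strand with HTSeq 0.6.1. The deposited counts are raw counts per gene. The deposited RPKM values were made by the authors and follow from the counts, the gene length and the library total (largest deviation 4.98e-10 percent). Reads that fit several places equally may have been lost before counting. NDUFA4L2 overlaps SHMT2 on the opposite strand by 33 bases, and counting was stranded. The other deposited columns gave gene positions, strand and length, and 0 sample columns were unmapped.

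Each line was tested on its own 4 libraries with edgeR 4.0.16 (R 4.3.3), with quasi-likelihood tests, TMM scaling and Benjamini-Hochberg adjustment over all tested genes, which were those that passed 0.5 CPM in 2 or more libraries. The study used DESeq2 with the same adjusted p of 0.1 and fold change of 1.5. The average effect, differences between lines (adjusted p alone) and normoxic contrasts came from 1 joint edgeR fit of 12 libraries. The NDUFA4L2 share was tested by exact permutation over 216 arrangements. Alternatives were DESeq2 1.42.0, RLE factors, library size alone, no filter, the joint fit, a replicate block, limma 3.58.1 on log2(RPKM + 0.1) and log2(RPKM + 1), no minimum fold change and each library left out. Scaling by library size moved the median of all genes, relative to TMM, by 0.0834, -0.0913 and -0.352 in RKO, A549 and H460, so changes are relative to TMM. The scripts were tested on simulated data.

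Replicates with the same number deviated together across genes (r 0.339 in RKO, 0.343 in A549, 0.115 in H460). On this ground alone the numbers were used as pairs, and only in the alternative fits with a replicate block. The main fits and the permutation test did not use the pairs, so their p-values leave this shared deviation out. The study calls its replicates independent biological duplicates and does not say what a shared number across conditions marks. No 2 replicates agreed within sampling noise (chi-square per degree of freedom 9.6 to 72). Besides the 7 genes, the text names from each other list up to 3 called genes by lowest adjusted p, and for each gene the 3 most alike over the 12 libraries. GLRX5, BOLA3, HSPA9, NDUFAB1, HIGD2A, COX6B1 and the markers named lie outside this rule and were chosen with their values in view. The 7 genes and the lists were chosen with earlier results of these data known. The seed sites were searched in 1 transcript per gene of the GENCODE annotation on GRCh37.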

Additional observations from a re-analysis of the deposited data

Results flagged for a closer look

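Tests of the difference in response between lines, in the joint edgeR fit of 12 libraries, passed for 7 results. Among all 15595 genes, 14.6% passed for RKO against A549, 37.6% for RKO against H460 and 36% for A549 against H460. For NDUFA4L2 the differences in log2 fold change were 2.48 for RKO minus A549 (adjusted p = 0.061), -2.47 for RKO minus H460 (adjusted p = 0.0194) and -4.95 for A549 minus H460 (adjusted p = 0.000229). For ISCU they were 0.76 for RKO minus A549 (adjusted p = 0.0614) and 0.83 for RKO minus H460 (adjusted p = 0.0166). LONP1 gave -0.67 for A549 minus H460 (adjusted p = 0.0281) and HIGD1A 0.99 for the same pair (adjusted p = 0.0126). As given above, both RKO minus A549 results, NDUFA4L2 in RKO minus H460 and LONP1 did not hold with every library left out. LONP1 also did not pass with library size alone. No group held the 4 samples that a search for outlying samples needs.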

How the results depend on the processing

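With 2 libraries a group, standard errors had medians of 0.184, 0.223 and 0.114 log2 units in RKO, A549 and H460, so changes under 1.5-fold were poorly resolved in A549. In RKO the number of the 7 genes called higher went from 1 to 0 with DESeq2 and to 2 with no minimum fold change, and ranged from 0 to 1 with each library left out. In A549 the number called lower ranged from 0 to 1 with each library left out. In H460 the number called lower went from 1 to 3 with library size alone, with limma on log2 RPKM at either pseudocount and with no minimum fold change, and ranged from 1 to 2 with each library left out. The number called higher in H460 went from 2 to 1 with library size alone and with limma at either pseudocount, and ranged from 1 to 2 with each library left out. The tests of a difference between lines that passed went from 7 to 11 with the replicate block, and ranged from 4 to 7 with each library left out, 4 being without RKO normoxia replicate 2. The replicate block changed no other call among the 7 genes. Scaled by library size alone, 10 tests of a difference between lines passed. The mean change in the NDUFA4L2 share ranged from 14.9 to 17.0 percentage points with each library left out. Over all genes in A549, 381 were called, against 871 with DESeq2, 192 with library size alone, 800 with no filter, 1397 in the joint fit, 1912 with the replicate block, 180 and 144 with limma at pseudocounts of 0.1 and 1, and 237 to 1835 with each library left out.

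Signs turned only for values that were not called. COX4I1 in RKO became 0.0485 with library size alone, 0.026 in the joint fit, and 0.0485 and 0.0484 with limma at pseudocounts of 0.1 and 1. LONP1 in A549 became 0.0092 in the joint fit. With library size alone the difference RKO minus A549 of NDUFA4 became 0.033 and RKO minus H460 of LONP1 became 0.071. With each library left out, log2 fold changes ranged from -0.096 to 0.027 for COX4I1 in RKO. In A549 the ranges were -0.15 to 0.064 for COX4I1, -0.16 to 0.018 for NDUFA4, -1.97 to 0.41 for NDUFA4L2, -0.14 to 0.15 for LONP1, -0.57 to 0.037 for HIGD1A and -0.50 to 0.0076 for ISCU. The average effect ranged from -0.068 to 0.0025 for COX4I1 and from -0.10 to 0.066 for ISCU. Differences in response ranged from -0.049 to 0.16 (COX4I1) and -0.19 to 0.0098 (NDUFA4) for RKO minus A549, and from -0.041 to 0.17 (COX4I1) and -0.16 to 0.34 (ISCU) for A549 minus H460. The normoxic difference RKO minus H460 of HIGD1A ranged from -0.32 to 0.010. The cause was not tested.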

Other observations

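The lung transcription factor gene NKX2-1, read only as a marker of tissue of origin, had 2 and 0 counts in H460 normoxia and 87 and 98 in H460 hypoxia. A549 had 1 and 5 counts in normoxia and 8 and 5 in hypoxia, and RKO had 0 in every library. It was chosen after its values were seen and passed the filter on low counts only through the hypoxia libraries, so no test is given.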
